A study of Sus scrofa with 180 samples.

Results

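Myostatin (MSTN), follistatin (FST) and insulin-like growth factor 1 (IGF1) were followed in the Longissimus (LM, the loin) and the Semimembranosus (SM, in the ham) of 90 pigs. The 3 genes were taken by symbol from the study's probe annotation, which names 3481 genes in the copies used here. Each had 1 probe in that annotation, out of the 15198 probes on the array. Any further probe of these genes that was not listed there could not be read. All 3 probes passed the criteria on signal in both muscles. The annotation lists only probes that the study had called between the 2 muscles on the same arrays, so that a difference between the muscles was a condition for being listed, and the tests of that difference given here are no independent evidence of it.

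Each muscle of each pig was hybridised to 1 single-colour (Cy3) Agilent array of porcine muscle sequences, which gave 90 arrays of LM and 90 of SM. The pigs were non-modified animals from a cross of 2 commercial sire lines, females and castrated males of 2 half-sib families, raised on the same farm, slaughtered at market weight and left untreated. Muscle was taken soon after death. Sex, family and slaughter batch are not given per array in the labels and were not fitted. LM filled 21 slides scanned on 10 days and SM 14 other slides scanned on 5 other days, so that muscle and slide or scan day cannot be told apart. LM arrays were the brighter ones. Over all 15198 probes, their array medians of the processed signal ran from 171 to 304, with 69.2 to 99.9% of probes well above background. On SM arrays these were 105 to 252 and 63.4 to 83.3%.

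Myostatin is a secreted protein of the TGF-beta family, made mainly by muscle fibres, that restrains muscle growth by binding activin type II receptors and activating SMAD transcription factors; animals that lack it are heavily muscled. Follistatin is a secreted glycoprotein that binds myostatin and activins and keeps them from their receptors. IGF1 is a growth factor made by the liver and, locally, by muscle, which promotes growth of the fibres through its receptor and the PI3K, AKT and mTOR kinases, while IGF-binding proteins hold it in the tissue and in the blood.

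Each probe has 60 bases. The first 30 of each, 5′ to 3′ as given with the array data, are shown because of a pattern over the whole array. The signal of probes rich in C near that end, relative to probes poor in C, moved with the muscle. Capitals mark the first 15 bases, in which C was counted.
MSTN: GCTAATTCAATAGGCtgaatggctggtgtt
FST: CACATTCAACCTTTTgttaggtgtttcctt
IGF1: TGGCAGGATCCTTTGctctgcacgagttac
The capitals hold 3 C in the MSTN probe, 5 in the FST probe and 3 in the IGF1 probe, so that none of them belongs to the C-rich probes (8 or more C) or the C-poor probes (2 or fewer). GC content over the whole probe was 35.0% for MSTN, 35.0% for FST and 45.0% for IGF1. The MSTN probe also holds an AATAAA hexamer, the usual polyadenylation signal, from its base 44 on. For an index of C-rich probes, the log2 level of each probe was first set relative to its mean over all arrays. The index of an array is the mean of these deviations over C-rich probes minus that over C-poor probes. It ran from -1.13 to 0.36 over LM arrays (median -0.37) and from -0.32 to 1.14 over SM arrays (median 0.36).

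MSTN and FST were overrepresented in LM and IGF1 in SM. MSTN was 2.49-fold higher in LM, FST 1.55-fold higher in LM, and IGF1 1.55-fold higher in SM. In 61 of the 89 pigs with a value for all 3 genes in both muscles, MSTN and FST were higher in LM and IGF1 was higher in SM, and in 0 of them were all 3 differences the other way round. Over the whole array, 83.5% of the 10987 probes tested were called at an adjusted p of 0.05 or less. Of all probes, 35.7% were called as higher in LM and 47.7% as higher in SM, so that being called sets none of the 3 genes apart. The median size of a difference over all probes was 0.31 on the log2 scale. All 3 differences were larger than that, but the genes were listed only because the study called a difference, which favours larger ones. All log2 levels below are processed signals relative to a median of the same array, taken over the 11000 probes that passed the criteria on signal. That median differs from the array median over all probes given above, so a negative level need not lie below the latter. A level of one probe cannot be set against that of another. Muscle samples are mixtures, and fewer cells of a type and less RNA per cell cannot be told apart in them.

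MSTN gave a processed signal of 132 to 1764 in LM (median 649) and of 49.8 to 767 in SM (median 221), and its spot was well above background on every array. Its log2 level had a lowest value of -2.31, a median of 0.33 and a highest value of 1.55 in LM. In SM these were -3.22, -1.01 and 0.65. The muscles overlapped, but 28 of the 90 LM arrays lay above the highest SM array and 5 SM arrays lay below the lowest LM array. LM arrays averaged 0.28 ± 0.64 (SD, n = 90) and SM arrays -1.03 ± 0.74 (SD, n = 90), a difference of 1.31 (SE 0.10; 95% interval 1.11 to 1.51; adjusted p = 8.54e-27, limma). MSTN was higher in LM in 81 of 90 pigs. Within a pig, the difference ran from -0.53 to 3.06, with a median of 1.29.

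FST gave a processed signal of 336 to 1868 in LM (median 887) and of 97.8 to 1726 in SM (median 438), again well above background on every array. Its log2 level had a lowest value of -0.78, a median of 0.76 and a highest value of 1.90 in LM, against -1.76, 0.10 and 1.90 in SM. The top of the range was thus shared by both muscles, with 1 LM array above the highest SM array, while the bottom was not, with 14 SM arrays below the lowest LM array. LM arrays averaged 0.69 ± 0.67 (SD, n = 90) and SM arrays 0.051 ± 0.74 (SD, n = 90), a difference of 0.64 (SE 0.10; 95% interval 0.43 to 0.84; adjusted p = 1.17e-08, limma). FST was higher in LM in 72 of 90 pigs, and the difference within a pig ran from -1.49 to 2.30. Both MSTN and its inhibitor were higher in LM in 68 of the 90 pigs.

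IGF1 gave a processed signal of 124 to 417 in LM (median 238) and of 120 to 504 in SM (median 303). On 1 LM array the spot failed the background criterion, and its value was left out. Its log2 level had a lowest value of -1.97, a median of -1.13 and a highest value of -0.34 in LM, against -1.94, -0.47 and 0.17 in SM. In SM, 29 of 90 arrays lay above the highest LM array, and 1 LM array lay below the lowest SM array. LM arrays averaged -1.12 ± 0.37 (SD, n = 89) and SM arrays -0.48 ± 0.31 (SD, n = 90), a difference of -0.63 (SE 0.051; 95% interval -0.73 to -0.53; adjusted p = 3.02e-25, limma). IGF1 was higher in SM in 81 of 89 pigs, and LM minus SM within a pig ran from -1.74 to 0.61. IGF1 differed by as much as FST on the log2 scale, with a smaller SD between pigs in both muscles.

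**Figure D1:**
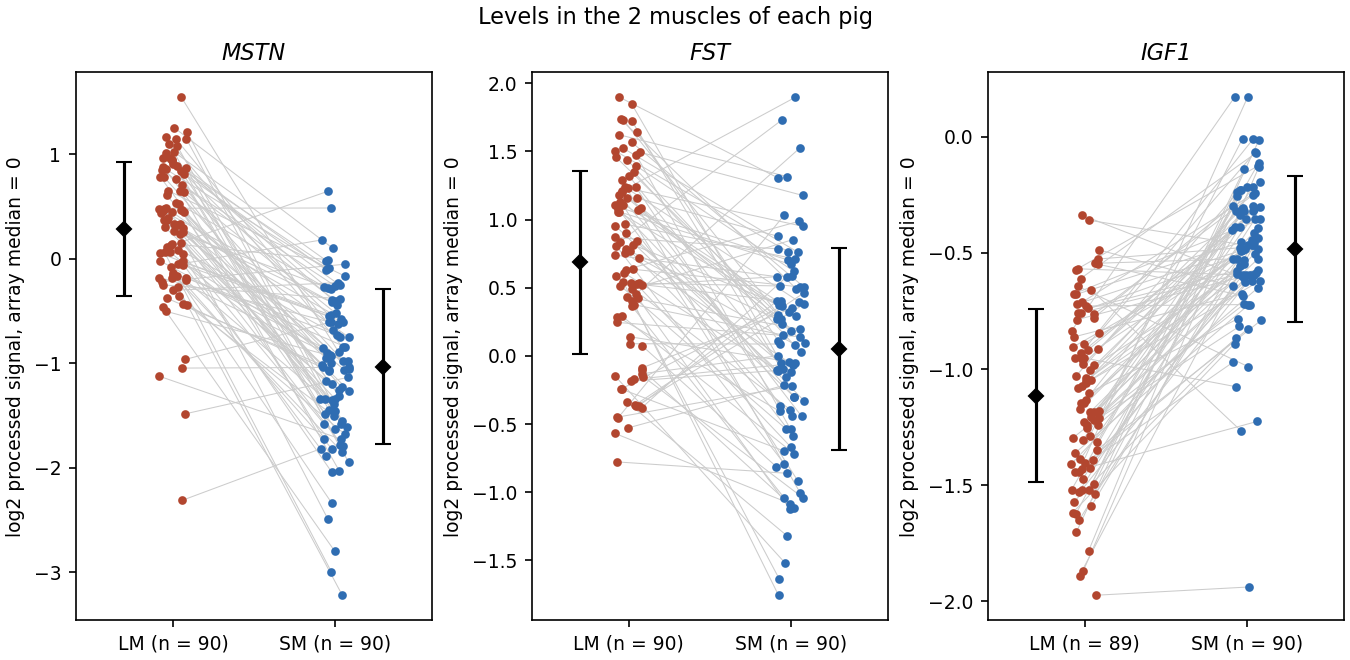
Log2 processed signal of MSTN, FST and IGF1 (vertical axis), for LM (red) and SM (blue). Levels are relative to the median of the array over the probes that passed the criteria on signal. Each point is 1 array, grey lines join the muscles of 1 pig, and black diamonds with bars give the mean and SD; MSTN and FST fall from LM to SM in most pigs (means 0.28 to -1.03 and 0.69 to 0.051) and IGF1 rises (-1.12 to -0.48).

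**Figure D2:**
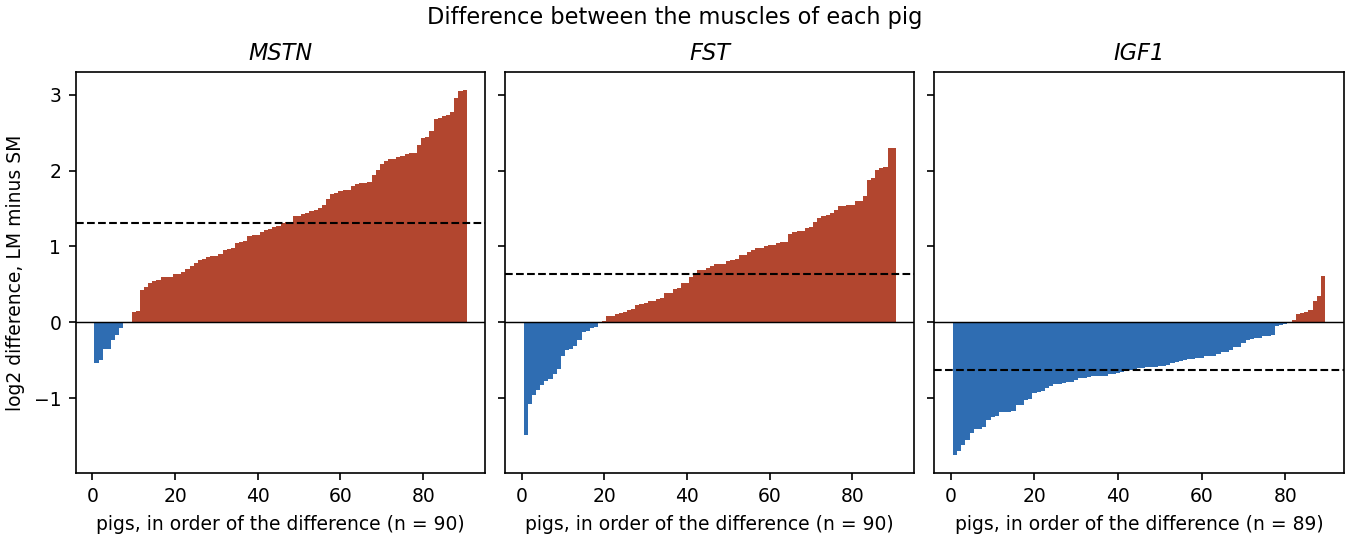
Log2 difference of LM minus SM in each pig (vertical axis), with the pigs in order of the difference for each gene; red bars are higher in LM, blue bars higher in SM, and the dashed line is the mean. MSTN was higher in LM in 81 of 90 pigs, FST in 72 of 90, and IGF1 was higher in SM in 81 of 89.

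Arrays at the ends of the range were looked at singly. The LM array with the lowest MSTN level (-2.31) was also the LM array with the lowest FST level (-0.78) and the one on which IGF1 was not well above background; the SM array of that pig had an MSTN level of -1.82. The SM array with the lowest IGF1 level (-1.94) came from the pig whose LM array also had the lowest IGF1 level (-1.97), so that 1 pig was at the bottom for IGF1 in both muscles. The SM array with the lowest MSTN level (-3.22) had an FST level of -0.22 and an IGF1 level of -0.68. The correlations are therefore also given without the first of these pigs and the second, a choice made after the values were seen.

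The spread between pigs did not differ detectably between the muscles. The SD in LM was 0.86 times that in SM for MSTN, 0.91 times for FST and 1.19 times for IGF1 (adjusted p = 0.31 for each, two-sided permutation test that swapped the muscles within pigs).

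Whether a pig with a high level in one muscle had a high level in the other was asked for each gene over pigs. FST was correlated between LM and SM (r = 0.32, 95% interval 0.13 to 0.50, rho = 0.30, n = 90, p = 0.0018, adjusted p = 0.0033, permutation test). For MSTN, r was 0.21 (95% interval 0.00026 to 0.40, rho = 0.18, n = 90, p = 0.051, adjusted p = 0.077, permutation test). For IGF1, r was 0.044 (95% interval -0.17 to 0.25, rho = -0.061, n = 89, p = 0.68, adjusted p = 0.68, permutation test). These and the 6 correlations between genes were adjusted together as a family of 9, with two-sided tests of 100000 permutations. The FST relation did not hold once levels were centred within slides (r = 0.092, adjusted p = 0.48, permutation test). Centring within slides also removes any differences between the families or slaughter batches that slides may hold, and their part was not tested. Of the 90 pigs, 19 shared a slide with the same other pig in both muscles. Without the 2 arrays farthest from the LM median, r was 0.28 for FST, 0.18 for MSTN and -0.082 for IGF1.

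MSTN and FST varied together in both muscles. In LM, r was 0.54 (95% interval 0.37 to 0.67, rho = 0.52, n = 90) and in SM 0.56 (95% interval 0.40 to 0.69, rho = 0.54, n = 90), each with p = 1e-05, the smallest that 100000 permutations can give, and an adjusted p of 3e-05. Arrays with more myostatin transcript thus tended to have more transcript of its binding protein, in each muscle on its own. The correlations differed between the muscles by -0.020 (adjusted p = 0.83, permutation test that swapped the muscles within pigs). Centred within slides, r was 0.44 in LM and 0.60 in SM. Within the 6 scan days of LM with 6 or more arrays, r ran from 0.028 to 0.71, and within the 5 of SM from 0.45 to 0.66, positive on all of them. Without the 2 pigs named above, r was 0.50 in LM and 0.54 in SM, and without the 2 arrays farthest from the MSTN median it was 0.47 in LM and 0.55 in SM.

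IGF1 varied with MSTN and with FST in LM. There, r between MSTN and IGF1 was 0.42 (95% interval 0.23 to 0.57, rho = 0.42, n = 89, p = 4e-05, adjusted p = 9e-05, permutation test), and r between FST and IGF1 was 0.52 (95% interval 0.34 to 0.65, rho = 0.52, n = 89, p = 1e-05, adjusted p = 3e-05, permutation test). In SM, r between MSTN and IGF1 was 0.087 (95% interval -0.12 to 0.29, rho = 0.0015, n = 90, p = 0.41, adjusted p = 0.46, permutation test), and r between FST and IGF1 was 0.16 (95% interval -0.053 to 0.35, rho = 0.14, n = 90, p = 0.14, adjusted p = 0.18, permutation test). Over the 89 pigs with all values, the correlation with IGF1 was higher in LM than in SM by 0.32 for MSTN and by 0.34 for FST (adjusted p = 0.044 for each, permutation test that swapped the muscles within pigs). Both differences lost the call under 3 of the alternatives, given in the closing section. Without the 2 pigs named above they were 0.39 for each (adjusted p = 0.022, permutation test).

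Scan days gave a less even picture for IGF1 than for MSTN with FST. Within the 6 LM scan days, r with IGF1 ran from -0.16 to 0.58 for MSTN, positive on 5, and from 0.0036 to 0.66 for FST, positive on all 6. Within the 5 SM scan days it ran from -0.36 to 0.36 for MSTN, positive on 2, and from -0.35 to 0.53 for FST, positive on 3. In LM, where 46 arrays were read with one version of the scanner's software and 44 with another, r was 0.39 and 0.45 for MSTN with IGF1 and 0.51 and 0.52 for FST with IGF1. Without the 2 arrays farthest from the median of the first gene, r with IGF1 in LM was 0.36 for MSTN and 0.52 for FST, and in SM 0.033 for MSTN and 0.21 for FST.

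**Figure D3:**
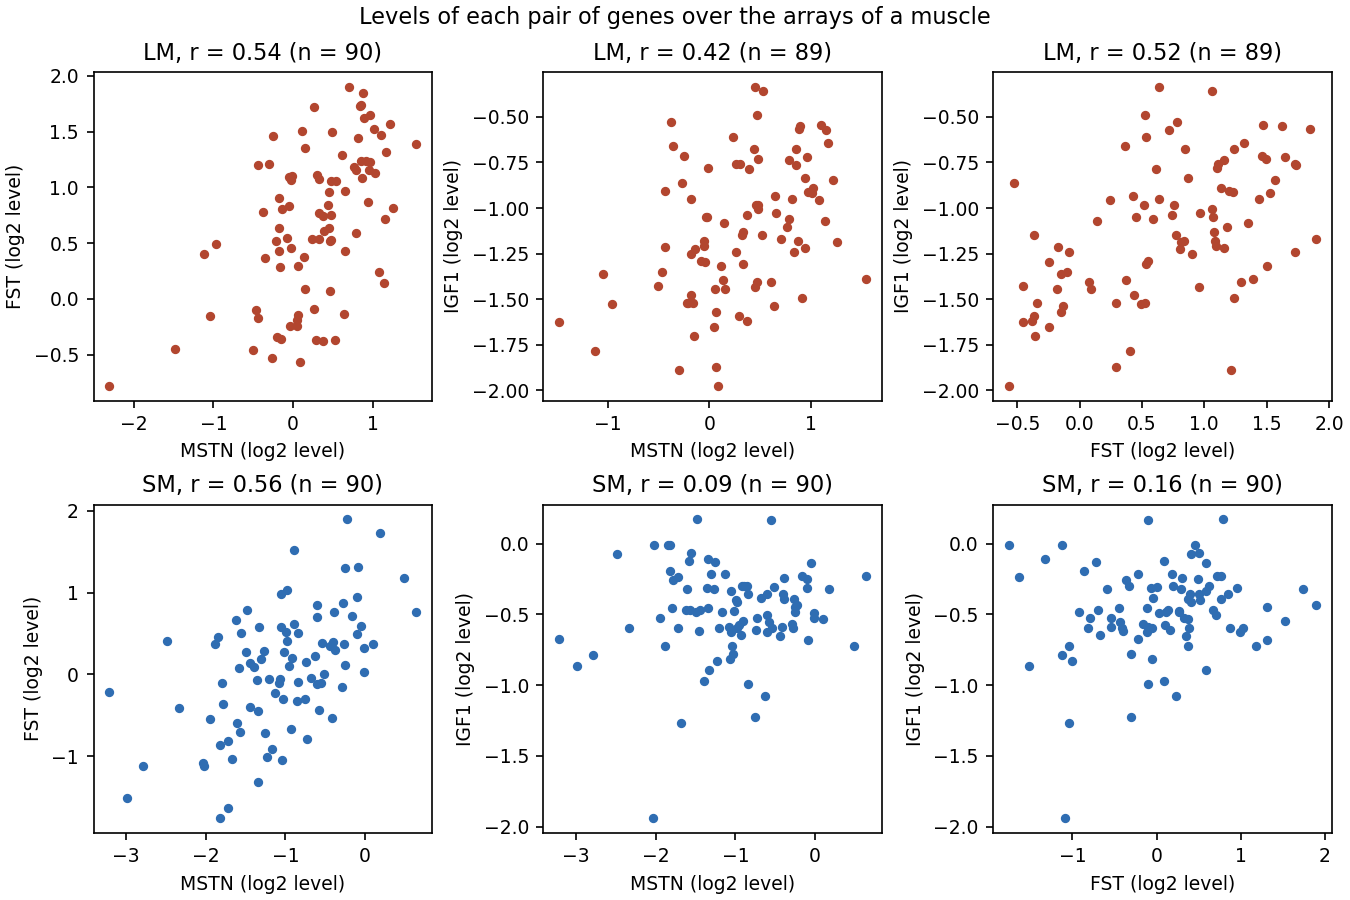
Log2 level of one gene against another over the arrays of LM (top row, red) and SM (bottom row, blue); each point is 1 array. MSTN and FST rise together in both rows (r = 0.54 in LM and 0.56 in SM), while IGF1 rises with MSTN and FST in LM (r = 0.42 and 0.52) and shows r = 0.087 and 0.16 in SM.

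Part of the spread in LM lay between slides. The paper's model nested hybridization batch within sire family, so slides may also differ in the pigs they hold. The part of family, sex or slaughter batch in these shares was not tested. Over slides with 3 or more arrays, 44.1% of the variance of FST in LM lay between slides (20.2% with no slide effect, adjusted p = 0.0035, permutation test), as did 35.3% for MSTN (20.2% with no slide effect, adjusted p = 0.045, but 0.067 with centring on the 75th percentile) and 28.1% for IGF1 (20.5% with no slide effect, adjusted p = 0.23). In SM, the shares were 17.0% for MSTN, 11.2% for FST and 5.79% for IGF1, against 13.8% with no slide effect, and none was called (adjusted p = 0.37, 0.79 and 0.97). Means of single LM scan days ran from -0.82 to 0.86 for MSTN, from -0.22 to 1.29 for FST and from -1.45 to -0.74 for IGF1. Those of SM scan days ran from -1.38 to -0.81 for MSTN, from -0.13 to 0.35 for FST and from -0.53 to -0.41 for IGF1. The day means of IGF1 did not overlap between the muscles, those of MSTN overlapped through 1 LM day of 4 arrays (mean -0.82) that held the array with the lowest MSTN level, and those of FST overlapped.

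**Figure D4:**
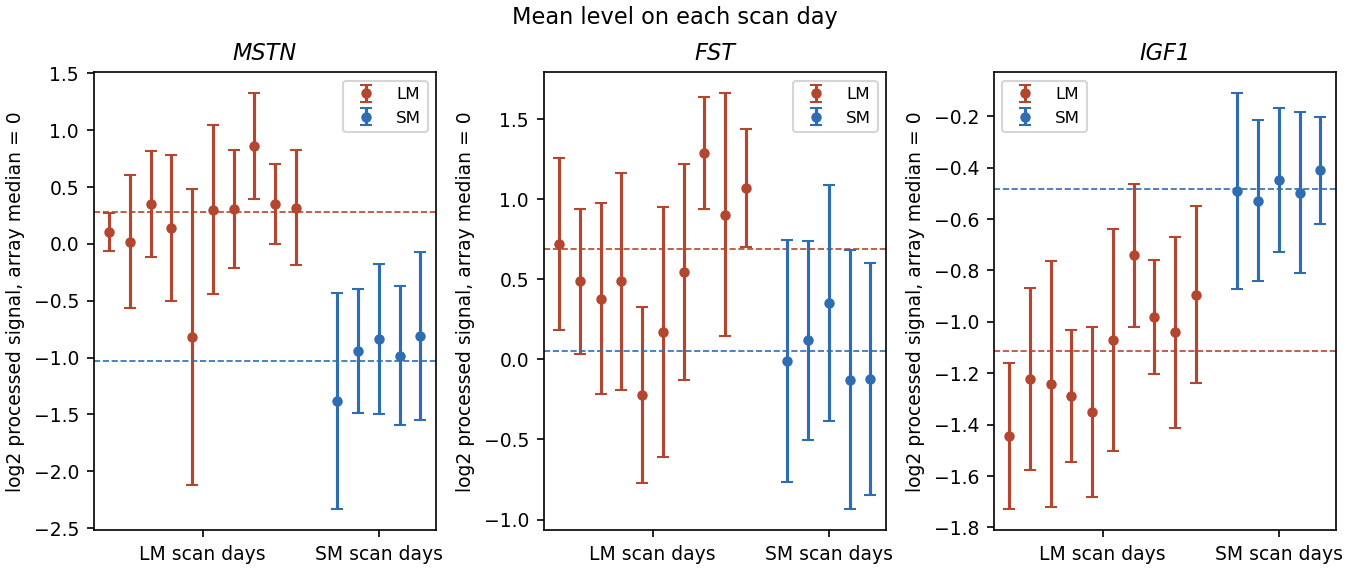
Mean log2 level on each scan day (points) with the SD of its arrays (bars), for 10 days of LM (red) and 5 of SM (blue); dashed lines are the means of the muscles. LM day means spread more widely than SM day means for all 3 genes, but rest on 3 to 14 arrays each, against 9 to 23 in SM. For IGF1 all LM day means lie below every SM day mean.

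The direction of all 3 differences held under the 12 alternatives to the processing and the model. The MSTN difference ran from 0.99 to 1.48, that of FST from 0.52 to 0.78 and that of IGF1 from -0.75 to -0.46, with adjusted p of at most 0.0012 (limma). When the C-rich index of each array was added to the model, the difference was 0.99 for MSTN, 0.63 for FST and -0.46 for IGF1 (adjusted p = 3.92e-09, 2.61e-04 and 3.52e-08, limma). With arrays of a scan day correlated in the model, it was 1.25, 0.59 and -0.64.

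The other genes of the 2 pathways were taken from lists of known components, and only those named in the annotation at hand could be read, so that here too being named rested on a call between the muscles. The counts below stand against 83.5% of all probes called, 35.7% as higher in LM and 47.7% as higher in SM. The part of the annotation for probes higher in SM was held incompletely. Genes higher in SM may thus be missing, and the counts here and for cell type markers may lean towards LM. Nothing particular to a list is read from these counts. Among ligands related to myostatin, the difference of LM minus SM on the log2 scale was -0.69 for TGFB1 (adjusted p = 2.21e-34), -1.63 for TGFB3 (adjusted p = 3.12e-51) and 0.32 for TGFB2 (adjusted p = 5.34e-08, limma). MSTN differed in the opposite direction from TGFB1 and TGFB3.

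Of 6 genes whose products bind myostatin or related ligands, 5 were called as higher in SM (47.7% of all probes) and 1 as higher in LM (35.7%), with a median difference of -0.50, where FST was higher in LM. FSTL3, a relative of follistatin that also binds myostatin, was at -0.50 (SE 0.040, adjusted p = 4.05e-25, limma), with 82 of 90 pigs higher in SM. WFIKKN2, which binds the myostatin propeptide, was at -0.34 (SE 0.049, adjusted p = 7.90e-11, limma). Biglycan (BGN), a matrix proteoglycan, differed most, at -1.81 (SE 0.078, adjusted p = 2.18e-54, limma). FSTL1, which shares a follistatin domain, was at -0.80, and TCAP, a sarcomere protein that binds myostatin inside the fibre, at -0.50. When the C-rich index was added to the model, TCAP was at -0.24 and WFIKKN2 at -0.20, both still called (adjusted p = 6.35e-07 and 0.013, limma). LTBP3, a latency protein, was the exception at 0.24 (adjusted p = 0.0083, limma) and took the opposite sign, -0.041, with normexp background correction.

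Of 5 receptor genes read, 2 were called as higher in LM and 2 as higher in SM, with a median of 0.11. TGFBR1, a type I receptor that can carry the myostatin signal, was at 0.45 and BMPR2 at 0.71, while TGFBR2 was at -0.76 and TGFBR3 at -0.60. ACVR1 was at 0.11 and was not called (adjusted p = 0.058, limma). When the C-rich index was added, TGFBR1 was at 0.21 (adjusted p = 4.65e-04) and ACVR1 turned to -0.15, again not called (adjusted p = 0.11, limma). All 4 probes for SMAD signalling, of 3 genes, were called as higher in LM (35.7% of all probes), with a median of 0.34. These were SMAD3, which carries the myostatin signal to the nucleus, at 0.25 (adjusted p = 9.52e-06, limma), SKIL, a repressor of SMAD activity, at 0.43 and 0.81 for 2 probes, and SMURF1, a ubiquitin ligase, at 0.21, with 45 of 88 pigs higher in LM. With the index added, the first SKIL probe was at 0.26, and SMURF1 was not called (0.20, adjusted p = 0.079, limma).

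Around IGF1, 6 of 7 probes for binding proteins and the acid-labile subunit were called as higher in SM (47.7% of all probes), with a median of -0.46; IGF1 was higher in SM too. IGFBP6 was at -1.31 (SE 0.056, adjusted p = 2.18e-55, limma), IGFBP2 at -0.87 and IGFBP7 at -0.80. The 2 probes of IGFBP3, the main carrier of IGF1 in blood, gave -0.36 and -0.37, of which the latter lost its call when the C-rich index was added (-0.22, adjusted p = 0.076, limma). IGFALS, which holds IGF1 in the circulating complex with IGFBP3, was at -0.46, from 65 LM and 82 SM arrays. IGFBP1 was at 0.085 and was not called (adjusted p = 0.091, limma); when the C-rich index was added it was called as higher in LM (0.39, adjusted p = 3.15e-07, limma).

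Downstream of the IGF1 receptor, all 7 probes reported here were called as higher in LM (35.7% of all probes), with a median of 0.40, while IGF1 was higher in SM. RPS6KB1, the kinase through which mTOR drives protein synthesis, was at 0.66 (SE 0.040, adjusted p = 7.00e-37, limma), with 87 of 89 pigs higher in LM. The subunits of PI3K were at 0.57 (PIK3R1) and 0.40 (PIK3CA). GRB10, an adaptor that dampens the receptor, was at 0.31. EIF4EBP1, a repressor of translation that mTOR inactivates, was at 0.13 (adjusted p = 0.016, limma), and its difference ran from 0.0066 to 0.32 over the alternatives. RPTOR at 0.67 and AKT2 at 0.19 rested on fewer arrays (84 and 73 in LM, 65 and 53 in SM), and were higher in LM in 31 of 59 and 27 of 44 pigs with both values; AKT2 was at -0.091 with normexp background correction. When the C-rich index was added to the model, PIK3CA (0.13, adjusted p = 0.089) and RPTOR (0.34, adjusted p = 0.14, limma) were no longer called. FBXO32 (atrogin-1), a ubiquitin ligase of muscle wasting, was called as higher in SM by both its probes, at -0.37 and -0.30. Pigs were split, with 48 of 84 and 50 of 89 higher in SM by these probes.

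**Figure D5:**
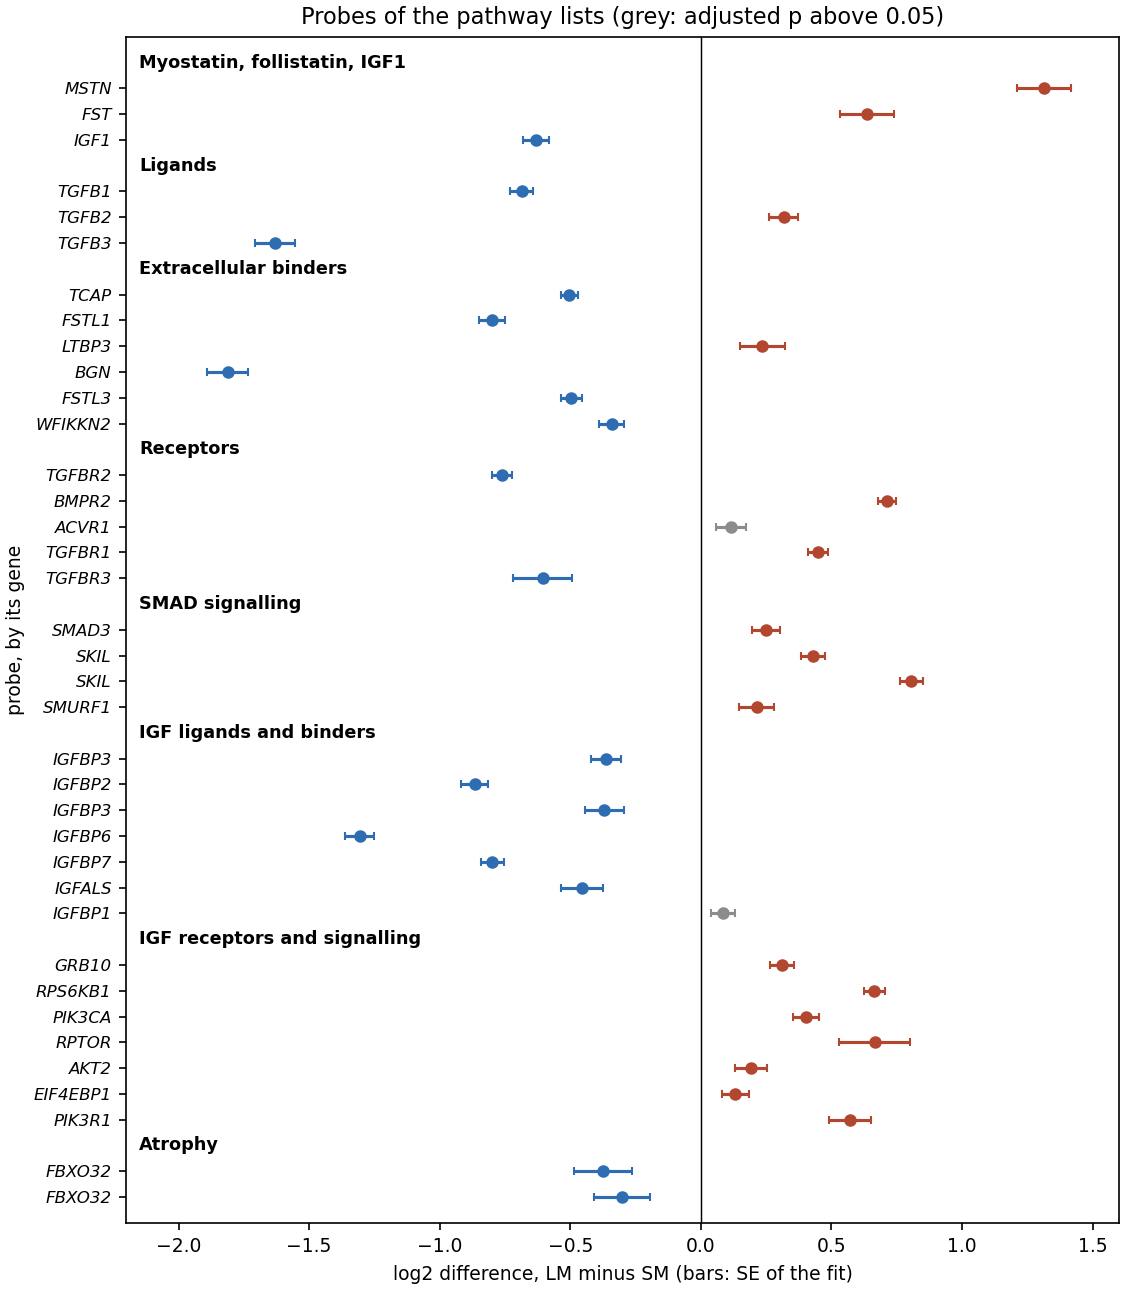
Log2 difference of LM minus SM (horizontal axis) for the probes of the pathway lists reported here, with the SE of the fit as bars; red points were called as higher in LM, blue as higher in SM, and grey were not called. MSTN at 1.31 lies to the right of every other probe, and 6 of 7 probes for IGF binders lie on the SM side.

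Markers of other cell types moved with the muscle as well. With 47.7% of all probes called as higher in SM and 35.7% as higher in LM, and marker genes read only where the annotation listed them, all 3 adipocyte probes were called as higher in SM (median difference -1.23), as were all 4 endothelial probes (-0.72), 6 of 7 fibroblast probes (-0.54), 3 of 4 macrophage probes (-1.28) and all 3 probes of HBA2 (-1.12), and of the muscle fibre probes 10 of 13 were called as higher in LM, 7 of them of TTN and NEB, while both ACTA1 probes (-0.83 and -0.70) and MYH1 (-0.57) were called as higher in SM. The mean level of the fibroblast probes ran from -3.14 to 1.33 over LM arrays (median 0.38) and from 0.017 to 1.89 over SM arrays (median 0.93), and that of the adipocyte probes from -3.34 to 1.94 in LM (median -1.26) and from -2.18 to 2.19 in SM (median -0.11). Satellite cell and myoblast probes were called as higher in SM for 3 of 4, of which MYOD1 turned from -0.81 to 0.69 when the C-rich index was added to the model, and 2 of the 3 HBA2 probes then lost their call (-0.25 and -0.14, adjusted p = 0.14 and 0.18, limma). Likewise, the macrophage gene SPI1, read on 49 LM arrays, moved from -3.02 to -0.31, and the calls as higher in LM of MYOG (0.21, adjusted p = 0.12) and FAP (0.067, adjusted p = 0.54, limma) were lost. IGF1 was higher in SM along with these connective, vascular and fat markers. MSTN was higher in LM along with TTN, NEB, RYR1 (3.54), MYL1 (0.87) and CKM (0.30), but not ACTA1 or MYH1. The part of tissue composition in these differences was not tested. Fibre genes such as ACTA1 were read on both sets of arrays, with log2 levels of its 2 probes at 8.31 and 9.46 in LM and 9.14 and 10.2 in SM.

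The named genes whose pattern over arrays was most like that of each gene were taken by the lower of r in LM and r in SM after centring within slides, over 85 LM and 88 SM arrays at most. For MSTN, these were ZFAND6 (0.66 in LM and 0.68 in SM), ZNF704 (0.66 and 0.67), APC, a brake on Wnt signalling (0.66 and 0.65), RPRM, an inhibitor of the cell cycle (0.63 and 0.63), and C16ORF87 (0.59 and 0.61). FST ranked 57 among the 3437 genes compared with MSTN (0.44 and 0.60), and IGF1 ranked 710 (0.41 and 0.10). LM minus SM was -0.57 for RPRM, unlike MSTN, and 0.42 to 0.56 for the other 4.

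For FST, the 5 most alike were NGFRAP1 (0.64 and 0.54), HPGD, which breaks down prostaglandins (0.68 and 0.53), CFD, the adipocyte-derived complement factor D (0.52 and 0.58), HAUS5, of the mitotic spindle (0.56 and 0.46), and USP47, a deubiquitinase (0.45 and 0.52). LM minus SM was -0.49 for CFD and -0.42 for USP47, unlike FST, and 0.22 for NGFRAP1, 1.15 for HPGD and 0.97 for HAUS5. MSTN ranked 11 among the genes compared with FST. For IGF1 they were COL6A3, a chain of collagen VI (0.57 and 0.68), HSPG2, the basement membrane proteoglycan perlecan (0.55 and 0.55), CCDC80, a secreted matrix protein (0.55 and 0.57), SH3BGRL (0.52 and 0.52) and SERPINE2, a secreted protease inhibitor (0.52 and 0.56). All 5 were, like IGF1, lower in LM, with differences from -1.17 to -0.52 on the log2 scale. MSTN and FST ranked 851 and 547 among the genes compared with IGF1, through their low correlations in SM. These correlations are descriptions over arrays that share slides and differ in brightness, and the genes compared all came from the annotation of called probes.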

How the data were processed

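The authors deposited the scanner's output of all arrays, read with Feature Extraction 9.5.1.1 or 9.5.3.1, as spot intensity on a linear scale, background-subtracted and not normalized between arrays, and a table that, as deposited, holds the natural log of the processed signal minus 1 constant per array; the table served as an alternative. Here the log2 of the processed signal was used. Probes with more than 50% of spots not well above background, non-uniform or saturated in either muscle were dropped. Each array was then centred on the median of its remaining probes. Spots that were not well above background, non-uniform or saturated were set to missing. Values more than 3 SD from their probe's mean were removed, which left 10987 probes. Muscles were compared with limma 3.58.1 in R 4.3.3 (lmFit, eBayes, Benjamini-Hochberg), with the muscle as the only term, since the labels do not give the study's other terms; correlations, spreads and slide shares were tested with 100000 permutations in Python 3.11.15 with NumPy 2.4.6 and SciPy 1.17.1. The steps were tested on simulated data. The number of arrays limits the precision.

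The labels give the pig of each array, so that the numbers pair the muscles of 90 animals; over all probes, deviations of the 2 muscles of a pig had a median r of 0.048, and r was above 0.1 in 37 pigs. Genes were named by the annotation tables of the study, of which the second, for genes overrepresented in SM, was held in part. For this reason no set was tested. The authors' fold changes and p values in those tables were not used. The named genes were the 3 themselves, the listed pathway genes with a probe in those tables and, for each of the 3, the 5 genes most like it; 1 listed gene is not reported here. The members and lists were chosen with earlier results of these data known. No genome build was at hand for the probes, and no coordinates are given.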

Additional observations from a re-analysis of the deposited data

Results flagged for a closer look

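The correlation of MSTN with IGF1 differed between the muscles by 0.32 (LM minus SM; 0.42 in LM and 0.099 in SM over 89 pigs, adjusted p = 0.044, permutation test that swapped the muscles within pigs). The correlation of FST with IGF1 differed by 0.34 in the same direction (0.52 in LM and 0.17 in SM, adjusted p = 0.044, permutation test). The muscles were hybridised on different slides and scan days, and the part of these in the 2 differences was not tested beyond the values centred within slides, 0.32 for each.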

How the results depend on the processing

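Of 210 recomputed values of 25 results, 195 kept their direction and their side of the threshold. The deposited table, which holds fewer probes, gave 6027 calls between the muscles in place of 9169. With the pig as a replicate block, 9159 probes were called and the differences of MSTN, FST and IGF1 were 1.31, 0.64 and -0.63; the block changed none of the 3 calls. The FST correlation between the muscles fell to 0.092 centred within slides. The correlation of IGF1 between the muscles, 0.044 and not called, was -0.095 in the deposited table, -0.024 centred within slides, -0.082 without the 2 arrays farthest from the median and -0.094 without the 2 pigs that stood apart, the last an alternative chosen after seeing the data. The difference of the MSTN-FST correlations, -0.020, was 0.043 given the index of C-rich probes. The MSTN-IGF1 difference of correlations lost its call with normexp background correction (0.14, adjusted p = 0.48), centred within slides (0.32, adjusted p = 0.051) and given the index of C-rich probes (0.29, adjusted p = 0.068). The FST-IGF1 difference lost it under the same settings (0.33, 0.32 and 0.28, adjusted p = 0.057, 0.051 and 0.068). The SD ratio of MSTN was 1.02 with normexp. The share of MSTN variance between LM slides was 34.0% with centring on the 75th percentile (adjusted p = 0.067). The cause was not tested in these cases. Since each slide and scan day held a single muscle, they could only be modelled as random blocks.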
